A study of Rattus norvegicus with 16 samples.

Results

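The BCL2 family was followed through all 19 probe sets that the platform annotation assigns to Bax, Bcl2l11, Hrk, Bcl2, Bcl2l1 or Bcl2l2. They are 19 of the 1263 probe sets tested, and their 6 genes are among the 720 named genes of an array designed for neurobiology. Within these genes membership followed the gene symbol alone, so that no probe set was picked by its values. The 6 genes themselves were chosen with earlier results of these data known. Messenger RNA was measured in 3 regions of the newborn rat cochlea: the organ of Corti, which holds the sensory hair cells, the modiolus, which holds the spiral ganglion neurons and their glia, and the stria vascularis, the epithelium that secretes endolymph. Each region was studied as explants cultured for 24 h with 5 h of hypoxia, as explants cultured for 24 h in normoxia, and as native tissue lysed after dissection. The hypoxic episode started 3 h into culture, held the medium at 10 to 20 mmHg oxygen and was followed by 16 h of normoxia. The cultures stood in medium with serum, insulin, transferrin and ciprofloxacin, which the native tissue did not meet. Every array held total RNA pooled from 12 cochleae, stated for native tissue to be 6 animals, and no strain is given. There were 2 arrays for each of the 6 cultured groups and for native organ of Corti, and 1 each for native modiolus and native stria vascularis. The descriptions of these single native arrays call the tissue fresh, while their treatment text mentions collection after 24 h of cultivation, and they are used here as the descriptions give them. The labels do not say whether repeats came from separate litters or culture days, so that p-values measure the spread between these pools.

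Proteins of the BCL2 family decide whether the outer mitochondrial membrane is opened, the step that releases cytochrome c and starts the caspase cascade. BAX forms the pores, the BH3-only proteins BIM (the product of Bcl2l11) and HRK trigger the process, and BCL2, BCL-XL (the product of Bcl2l1) and BCL-W (the product of Bcl2l2) hold it back. In neurons the BH3-only genes are known to be controlled largely through transcription, whereas BAX is controlled largely by its shape and its place in the cell. Loss of hair cells and of spiral ganglion neurons through this route is a known consequence of cochlear injury.

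Signals are intensities on a linear scale, in the authors' scaled units. A signal counts as above background where at least 1 array of the group exceeded the 95th percentile of its own 23 control probe sets for sequences foreign to the rat. This limit lay between 310 and 646 on hypoxic arrays, between 237 and 772 on normoxic arrays and between 297 and 485 on native arrays. Of the 19 probe sets, 18 were above background in at least 1 of the 9 groups and 9 were above it in all of them. Of the 1263 probe sets tested, 1090 were above it in at least 1 group. Some measures of the tissue and of the RNA moved with culture. The ratio of 3′ to 5′ Gapdh probe sets, a measure of RNA integrity and priming, was 1.07 to 1.39 in hypoxia, 1.14 to 1.26 in normoxia and 3.39 to 4.76 in native tissue. The same ratio for beta-actin overlapped between conditions, at 1.89 to 2.78 in hypoxia, 1.73 to 2.32 in normoxia and 1.67 to 2.41 in native tissue. All native arrays were also scanned in a period of their own, so that culture and scan period cannot be told apart. Repeats 1 of the cultured groups were scanned in period 2 and repeats 2 in period 3. Of the markers of Schwann cells and myelin, 5 of 5 measured genes fell in culture, with a summed signal of 14180 to 30328 in normoxia and of 77442 to 100014 in native tissue. Of 9 measured neuronal markers 6 fell, with a summed signal of 22518 to 76585 in normoxia and of 15588 to 128692 in native tissue. Of 2 measured glial markers Glul rose and Slc1a3 fell, with a summed signal of 47248 to 77549 in normoxia and of 25892 to 38675 in native tissue. Of 2 measured macrophage and leukocyte markers Ccl3 rose, with a summed signal of 2111 to 6596 in normoxia and of 224.5 to 373 in native tissue, where Ccl3 was below background. Of 4 measured strial markers Atp1b2 fell, with a summed signal of 3313 to 20851 in normoxia and of 6695 to 79849 in native tissue. The 1 measured mesenchymal marker, Vim, fell, with 40875 to 114237 in normoxia and 77026 to 155465 in native tissue. Of the genes on these lists Itgam was below background in every group. No hair cell marker of the list was measured, so that the labelled organ of Corti could not be checked against hair cells. In the mean of the 3 conditions, 6 of the 9 neuronal markers were higher and 1 was lower in organ of Corti than in modiolus (median log2 difference 0.84). Of the 5 Schwann cell and myelin markers, 1 was higher and 2 were lower in organ of Corti. Differences between these 2 regions are therefore not read as sensory epithelium against neurons. In pooled tissue, fewer cells of a type and less RNA per cell cannot be told apart. The part of each of these measures in the differences below was not tested.

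**Figure D1:**
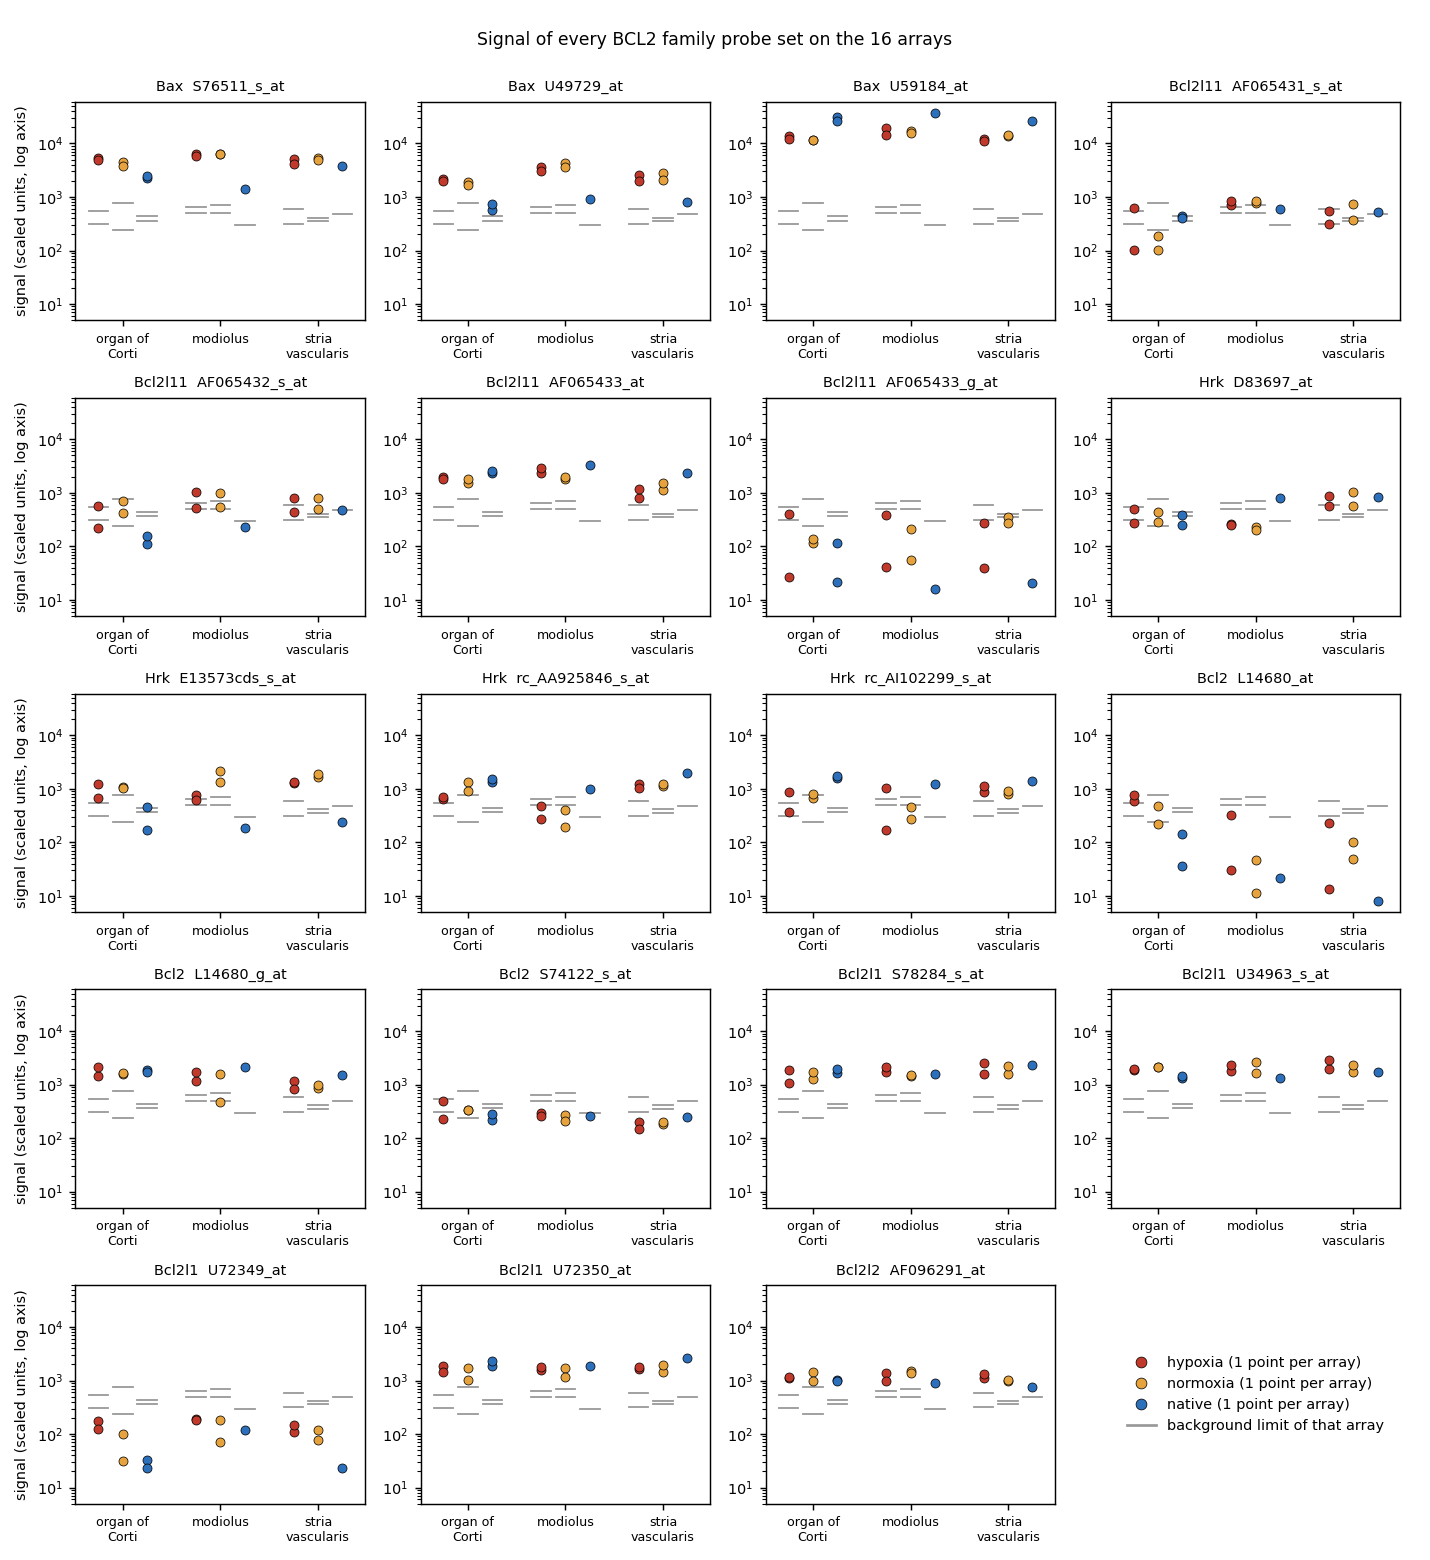
Signal of each of the 19 probe sets on every array (log axis, scaled units), by region along the x axis, with hypoxia, normoxia and native tissue from left to right and 1 point per array. Grey lines give each array's own background limit. Bax U59184_at lies far above background on all arrays and is highest in native tissue, whereas the other Bax probe sets are lowest there, and Bcl2l1 U72349_at never reaches the limit.

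Normoxic explants were compared with native tissue to see how the family's transcripts differ after a day in culture. Averaged over the 3 regions, 7 of the 19 probe sets passed the test, 4 of them higher and 3 lower in culture (limma, adjusted p below 0.05). Among all 1263 probe sets 32.0% passed, 13.3% higher and 18.7% lower, so that the family as a whole lay near the background of the array. The 7 that passed were all among the 11 probe sets of the pro-death genes Bax, Bcl2l11 and Hrk. None of the 8 probe sets of the anti-death genes Bcl2, Bcl2l1 and Bcl2l2 passed with limma, although 4 of them had an unadjusted p below 0.05. The median log2 difference was -0.03 over the 19 probe sets and -0.14 over all 1263. Every pro-death gene had at least 1 probe set that rose and 1 that fell. Of the 19 probe sets, 5 were higher and 6 lower on both normoxic arrays than on every native array of the same region in all 3 regions. Among all probe sets 12.7% were higher and 19.6% lower in this sense.

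**Figure D2:**
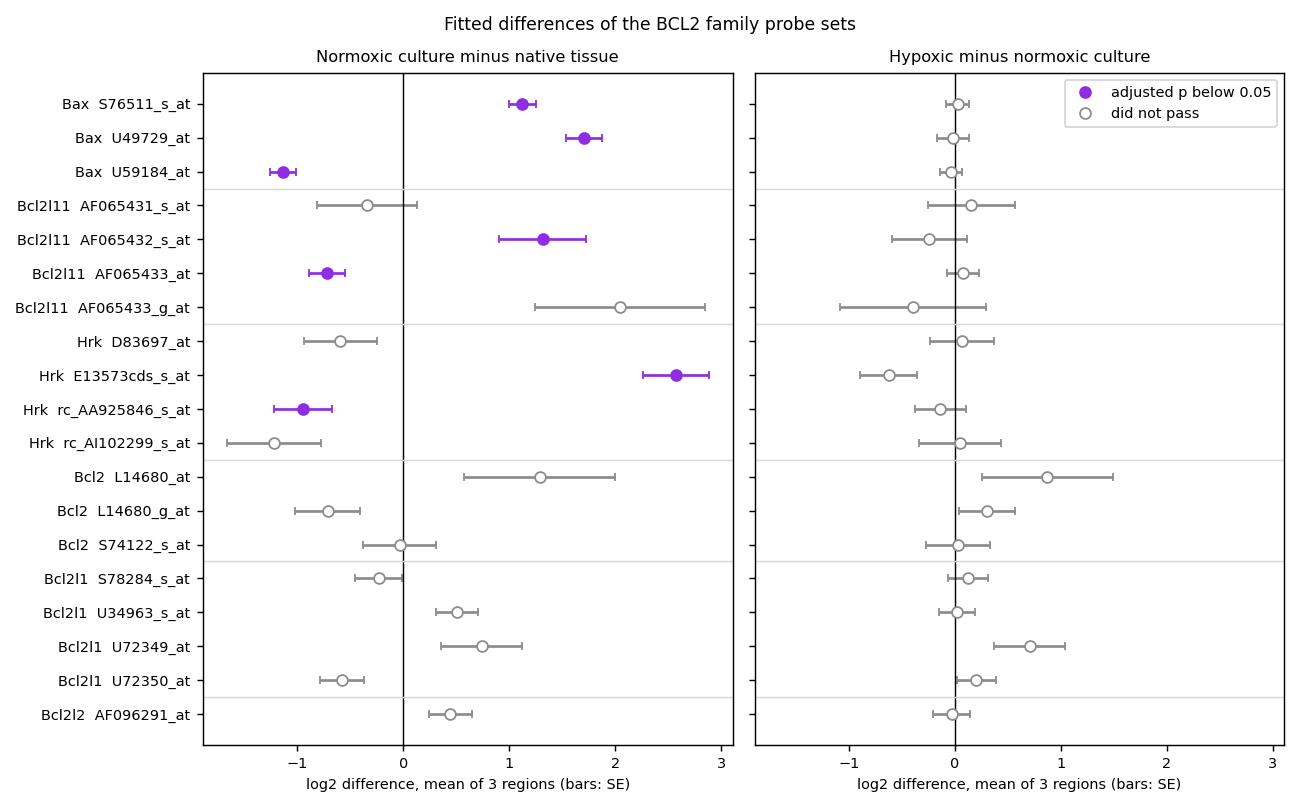
Fitted log2 differences of the 19 probe sets, as the mean of the 3 regions with SE, for normoxic culture minus native tissue and for hypoxic minus normoxic culture. Filled points passed an adjusted p of 0.05. In the culture comparison 7 points are filled, from -1.14 to 2.57, while in the hypoxia comparison none is. Values are as fitted, also where groups were below background.

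Bax, the gene of the pore-forming effector (chr1:105076472-105081906, GRCr8), had 3 probe sets, all above background in every group. U59184_at, by far the brightest of them, fell in culture. Its signal was 11555 and 11385 in normoxic organ of Corti against 31519 and 26307 in native organ of Corti. In modiolus it was 17006 and 15618 in normoxia against 36745 in native tissue, and in stria vascularis 13957 and 14454 in normoxia against 26772.5 in native tissue. The 2 conditions did not overlap in any region, and the fitted fall was 2.20-fold (log2 difference -1.14 ± 0.12 (SE), limma adjusted p = 1.3e-05).

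The other Bax probe sets changed the opposite way on the same arrays. S76511_s_at read 4512 and 3770.5 in normoxic organ of Corti against 2255 and 2505 in native organ of Corti, 6253 and 6428 in normoxic modiolus against 1393 in native modiolus, and 5338 and 4893 in normoxic stria vascularis against 3851 in native stria vascularis. Its normoxic signals were thus above the native ones in each region, by the most in modiolus and by the least in stria vascularis. The fitted rise was 2.18-fold (1.12 ± 0.12, limma adjusted p = 1.8e-05). U49729_at read 1871.5 and 1664 in normoxic organ of Corti against 561.5 and 739.9 in native organ of Corti. In modiolus its signal was 4284 and 3569.6 in normoxia against 900.5 in native tissue, and in stria vascularis 2749 and 2119 in normoxia against 790.3 in native tissue. It rose 3.26-fold (1.71 ± 0.17, limma adjusted p = 8.5e-06), again without overlap in any region. Over the 16 arrays the log2 signals of the rising probe sets had a Pearson r of 0.86 with each other, and of -0.70 and -0.66 with U59184_at. These are correlations over arrays that share regions and conditions and are given as a description.

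Bcl2l11, the gene of the BH3-only trigger BIM (chr3:135820042-135857330, GRCr8), had 4 probe sets. The window from 250 bases before to 50 bases after its start (chr3:135819792-135820091, plus strand, GRCr8, RefSeq) is shown because BIM is known to be controlled through transcription by FOXO factors. The capitals mark GTAAACA, a site of the FOXO type, whose first base lies at -204 from the start.
Bcl2l11: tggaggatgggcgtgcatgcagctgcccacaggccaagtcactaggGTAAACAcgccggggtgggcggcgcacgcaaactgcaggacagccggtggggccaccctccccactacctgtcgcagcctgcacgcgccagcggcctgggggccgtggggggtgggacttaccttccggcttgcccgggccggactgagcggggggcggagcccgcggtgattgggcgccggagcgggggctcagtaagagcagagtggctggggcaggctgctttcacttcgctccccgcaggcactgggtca

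AF065433_at, the brightest Bcl2l11 probe set and the only one above background in every group, fell in culture. It read 1520.0 and 1796.5 in normoxic organ of Corti against 2363 and 2532 in native organ of Corti, 1855 and 2003 in normoxic modiolus against 3346 in native modiolus, and 1152.5 and 1519.8 in normoxic stria vascularis against 2326 in native stria vascularis. The conditions did not overlap in any region (-0.72 ± 0.17, limma adjusted p = 0.006). AF065432_s_at rose, with 714.5 and 424 in normoxic organ of Corti against 111 and 156 in native organ of Corti. In modiolus it read 992 and 542 in normoxia against 232 in native tissue, and in stria vascularis 807 and 503 in normoxia against 477.5 in native tissue. No native group was above background, and normoxic organ of Corti 1, at 714.5, was below its own limit of 772.18. With the native groups raised to the limit the rise was 1.62-fold (as fitted 1.31 ± 0.41, limma adjusted p = 0.026). This call rested on single arrays: the adjusted p was 0.059 without native organ of Corti 1, 0.061 without normoxic organ of Corti 1 or normoxic modiolus 1 and 0.066 without normoxic stria vascularis 1, with log2 differences of 1.17 to 1.24. AF065431_s_at, at 104 to 827 in normoxia and 399 to 593 in native tissue, did not pass (-0.35 ± 0.47, limma adjusted p = 0.64). AF065433_g_at was above background in normoxic stria vascularis only and did not pass either (2.05 ± 0.80, limma adjusted p = 0.071). It passed without hypoxic organ of Corti 1 or 2 (limma adjusted p = 0.041 and 0.042), arrays that add only to the estimate of the spread.

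Hrk encodes harakiri, a BH3-only protein described in neurons (chr12:44048402-44070561, GRCr8), and had 4 probe sets. Its promoter window (chr12:44070512-44070811, minus strand, GRCr8, RefSeq) is shown because Hrk is known to be induced through JUN in neurons deprived of trophic factors. The capitals mark TGATGTAA, a site of the type bound by JUN with ATF proteins, whose first base lies at -108 from the start.
Hrk: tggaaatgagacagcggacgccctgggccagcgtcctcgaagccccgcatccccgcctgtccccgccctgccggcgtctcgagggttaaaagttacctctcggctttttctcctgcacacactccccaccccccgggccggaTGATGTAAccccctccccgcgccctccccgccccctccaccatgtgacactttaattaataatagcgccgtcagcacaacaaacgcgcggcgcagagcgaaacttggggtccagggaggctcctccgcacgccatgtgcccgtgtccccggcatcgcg

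The motifs below were searched on both strands in 33469 RefSeq promoter windows of the same length. TGATGTAA was in 1.02% of all windows, GTAAACA in 3.78%, the AP-1 site TGANTCA in 7.33% and the hypoxia response core ACGTG in 19.3%. The family has 8 windows from 5 genes, 4 of them of Bcl2l1. TGATGTAA was in the windows of Hrk and Bcl2, GTAAACA in that of Bcl2l11, TGANTCA in none, and ACGTG in those of Bcl2 and of 1 Bcl2l1 start. A match is a description of these letters and not a measured site.

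Hrk E13573cds_s_at had the largest log2 difference of the family among the probe sets that passed. It read 1074 and 1038 in normoxic organ of Corti against 448 and 170.3 in native organ of Corti, 1351 and 2117 in normoxic modiolus against 187 in native modiolus, and 1679 and 1851 in normoxic stria vascularis against 243 in native stria vascularis. Every normoxic array lay above every native array. Native modiolus and native stria vascularis were not above background, and with both raised to the limit the rise was 4.13-fold (as fitted 2.57 ± 0.31, limma adjusted p = 3.5e-05). Native organ of Corti 2, at 170.3 against a limit of 440.26, was kept as read, so that 4.13 is not a strict lower limit. rc_AA925846_s_at fell, with 1322 and 899 in normoxic organ of Corti against 1366.5 and 1503 in native organ of Corti, 404 and 194.5 in normoxic modiolus against 985 in native modiolus, and 1129 and 1233 in normoxic stria vascularis against 1930.3 in native stria vascularis. Since normoxic modiolus was not above background, the fall was at least 1.52-fold (-0.95 ± 0.28, limma adjusted p = 0.019). rc_AI102299_s_at was at 271 to 897.5 in normoxia against 1252 to 1714 in native tissue, without overlap, and its difference did not pass (-1.22 ± 0.45, limma adjusted p = 0.054). Hypoxic arrays add only to the estimate of the spread here. The difference passed with only the arrays compared (limma adjusted p = 0.0044), array weights (0.037), only probe sets above background (0.043) and a pseudocount of 64 (0.046). It passed without hypoxic modiolus 1 or 2, with adjusted p = 0.0081 and 0.0068, and without hypoxic organ of Corti 1, with adjusted p = 0.049. D83697_at, at 200.4 to 1054 in normoxia and 249.9 to 850.0 in native tissue, did not pass (-0.59 ± 0.35, limma adjusted p = 0.23).

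Bcl2, the founding anti-death member (chr13:23204464-23366900, GRCr8), had 3 probe sets and no call. L14680_g_at, the only one above background in every group, read 1596 and 1665 in normoxic organ of Corti against 1877 and 1697 in native organ of Corti. In modiolus it was at 466 and 1571 in normoxia against 2153 in native tissue, and in stria vascularis at 876 and 992 in normoxia against 1525 in native tissue. The normoxic signals lay below the native ones in each region, but the normoxic modiolus arrays differed more from each other than any other pair, and the difference did not pass (-0.71 ± 0.31, limma adjusted p = 0.097). Without normoxic modiolus 2 it was -1.0 with limma adjusted p = 0.0043. L14680_at and S74122_s_at were above background in hypoxic and normoxic organ of Corti only. L14680_at read 221 and 472 in normoxic organ of Corti against 36.8 and 145.9 in native organ of Corti, and stayed at or below 99.8 in the other normoxic and native groups (1.29 ± 0.71, limma adjusted p = 0.20). S74122_s_at was at 180.3 to 342 in normoxia and 218 to 279.8 in native tissue (-0.03 ± 0.35, limma adjusted p = 0.95).

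Bcl2l1, the gene of BCL-XL (chr3:161713777-161764844, GRCr8), had 4 probe sets, of which 3 were above background in every group. U34963_s_at was at 1683 to 2656 in normoxia against 1314 to 1690.1 in native tissue, higher in normoxia in each region (0.50 ± 0.20, limma adjusted p = 0.071). U72350_at was at 1017 to 1942 in normoxia against 1901 to 2637 in native tissue, lower in normoxia in each region (-0.58 ± 0.21, limma adjusted p = 0.053). S78284_s_at was at 1299.7 to 2237.5 in normoxia against 1559.5 to 2376 in native tissue (-0.23 ± 0.22, limma adjusted p = 0.48). None of these passed. Without normoxic modiolus 1, U34963_s_at gave 0.61 with adjusted p = 0.029 and U72350_at -0.67 with adjusted p = 0.032, and without normoxic organ of Corti 2 U72350_at gave -0.71 with adjusted p = 0.022. With the repeat number as a replicate block both passed, with adjusted p = 0.021 and 0.045. U72349_at stayed at or below 193 on every array and was above background in no group. Bcl2l2, the gene of BCL-W (chr15:32326686-32337834, GRCr8), had 1 probe set, at 989 to 1531 in normoxia against 758.5 to 1011 in native tissue, which did not pass (0.44 ± 0.20, limma adjusted p = 0.12).

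Within single regions, 5 of the 19 probe sets passed in the organ of Corti, 4 higher and 1 lower, against 17.3% of all probe sets (8.47% higher, 8.79% lower). In the modiolus 5 passed, 3 higher and 2 lower, against 20.9% (10.1% higher, 10.8% lower), and in the stria vascularis 3 passed, 2 higher and 1 lower, against 13.7% (7.36% higher, 6.33% lower). Bax U49729_at, Bax U59184_at and Hrk E13573cds_s_at passed in all 3 regions. For U49729_at the log2 difference was 1.43 ± 0.26 in organ of Corti, 2.10 ± 0.32 in modiolus and 1.59 ± 0.32 in stria vascularis. For U59184_at it was -1.33 ± 0.18, -1.17 ± 0.22 and -0.91 ± 0.22 in the same order, with the call in the stria vascularis lost without normoxic stria vascularis 1 (-0.89, limma adjusted p = 0.068), with quantile normalization (0.080), without the variance trend (0.092) and in a model of only the arrays compared (0.068). In that last model U49729_at did not pass in the stria vascularis either (adjusted p = 0.075). Hrk E13573cds_s_at gave 1.87 ± 0.46 in organ of Corti, a rise of at least 5.45-fold in modiolus and one of at least 3.55-fold in stria vascularis. Its call in the organ of Corti was lost without native organ of Corti 2 (1.21, limma adjusted p = 0.14), normoxic organ of Corti 1 (1.84, 0.069) or normoxic organ of Corti 2 (1.89, 0.067), and with only the arrays compared (0.064). Hrk rc_AA925846_s_at passed in the modiolus only, with a fall of at least 1.65-fold that did not pass without normoxic modiolus 2 (-1.25, limma adjusted p = 0.13) or with only the arrays compared (0.23). Bcl2l11 AF065432_s_at passed in the organ of Corti only (1.36-fold with native tissue raised to the limit, limma adjusted p = 0.047). This call was lost without any 1 of 8 arrays, with adjusted p = 0.051 to 0.24, and under 4 other alternatives, with adjusted p = 0.0505 to 0.0608. With the scan period as a term among cultures Bcl2l11 AF065433_at passed in the modiolus (-0.79, limma adjusted p = 0.047). With only the arrays compared Hrk rc_AI102299_s_at passed in the organ of Corti (-1.14, limma adjusted p = 0.038). Since native modiolus and native stria vascularis have 1 array each, their comparisons take the spread from the other groups.

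Bax S76511_s_at was the only family probe set for which the culture difference varied between regions beyond the spread (limma F test, adjusted p = 0.016). Of all probe sets 3.33% passed this test, and the next smallest adjusted p in the family was 0.41. Without the variance trend 0 family probe sets passed it. Its log2 difference was 0.79 ± 0.19 in organ of Corti, 2.17 ± 0.23 in modiolus and 0.41 ± 0.23 in stria vascularis, where it did not pass. The organ of Corti call was lost without native organ of Corti 1 (0.72, limma adjusted p = 0.086) or normoxic organ of Corti 1 (0.66, 0.096). The normoxic signals of S76511_s_at lay within 3770.5 to 6428 across regions, whereas the native ones spanned 1393 in modiolus to 3851 in stria vascularis, each of these from 1 array.

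**Figure D3:**
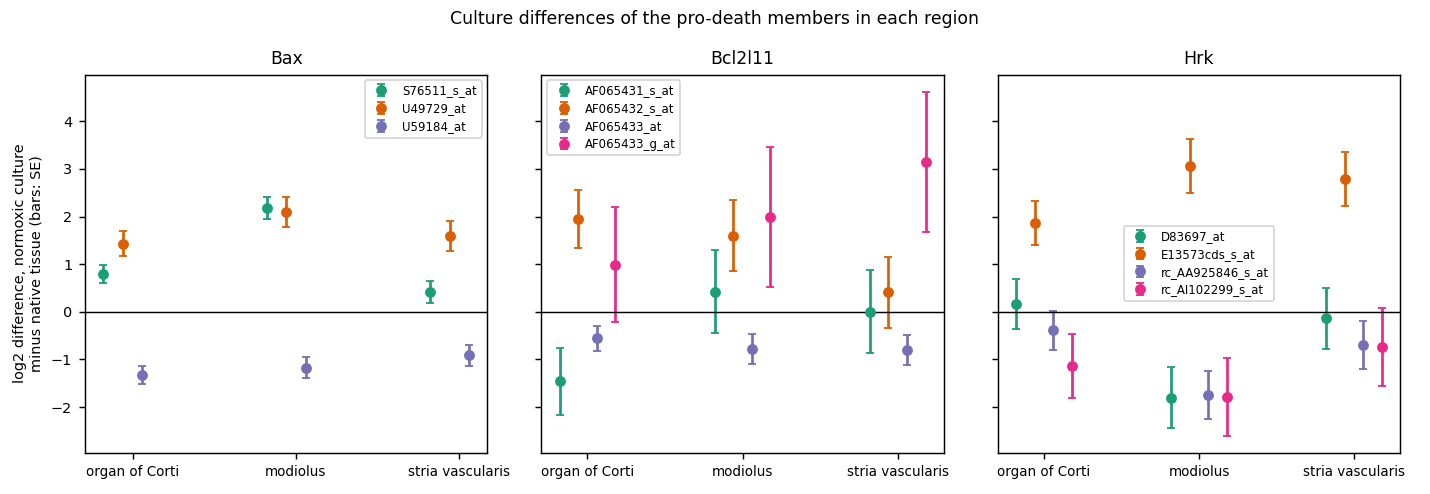
Log2 difference between normoxic culture and native tissue with SE for each probe set of Bax, Bcl2l11 and Hrk in the organ of Corti, the modiolus and the stria vascularis. The probe sets of each gene lie on both sides of 0 in each region, and Bax S76511_s_at ranges from 0.41 to 2.17 while Bax U49729_at ranges from 1.43 to 2.10. Values are as fitted, also where a group was below background.

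Whether probe sets of a gene differed from each other was tested within arrays, as the difference of their log2 signals. For culture, 9 of the 24 within-gene pairs of the family differed, which is 37.5%, against 20.5% of the 638 such pairs on the array (limma, adjusted over all pairs). Of the family pairs with both probe sets above background in at least 1 group 8 of 21 differed (38.1%), against 24.8% of 495 such pairs (limma, adjusted over these pairs). Pairs that differed share probe sets and are not independent. Those of Hrk all hold E13573cds_s_at, those of Bax U59184_at, those of Bcl2l11 AF065433_at and those of Bcl2l1 U72350_at. In 4 family pairs the probe sets were called in opposite directions, 2 in Bax, 1 in Bcl2l11 and 1 in Hrk, against 2.19% of all pairs. Probe sets of 1 gene called both ways occurred in 12 of 276 genes, or 4.35%, and Bax, Bcl2l11 and Hrk were 3 of these. Where groups below background allow it, the gap is also given with those groups raised to the limit, single arrays below it in other groups being kept as read. The adjusted p values belong to the gaps as fitted. In Hrk the culture difference of E13573cds_s_at exceeded that of rc_AI102299_s_at by 3.79 ± 0.45 as fitted (log2, adjusted p = 0.00054) and by 3.03 at that limit. For rc_AA925846_s_at minus E13573cds_s_at the gap was -3.52 ± 0.41 as fitted (adjusted p = 0.00054) and -2.65 at that limit. In Bax, U59184_at was 2.26 ± 0.21 below S76511_s_at (adjusted p = 0.00016) and 2.84 ± 0.23 below U49729_at (adjusted p = 0.0001), while the rising probe sets did not differ beyond the threshold (adjusted p = 0.065). In Bcl2l11, AF065433_at minus AF065432_s_at was -2.03 ± 0.45 as fitted (adjusted p = 0.012) and -1.42 with groups below background raised to the limit. In Bcl2l1, U72350_at fell below U34963_s_at by 1.08 ± 0.30 (adjusted p = 0.035). The other 3 pairs that differed have no measured size, since they set a probe set against D83697_at in Hrk, AF065433_g_at in Bcl2l11 or U72349_at in Bcl2l1, which had groups below background in both normoxia and native tissue. None of the 3 Bcl2 pairs differed. In Affymetrix names the ending _s_at marks probes that can match more than 1 transcript, and 9 of the 19 family probe sets carry it. Which transcripts the probes of each set match was not tested.

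Hypoxic explants were compared with normoxic explants of the same region to see whether the hypoxic episode left a difference in the family after recovery. Averaged over regions, 0 of the 19 probe sets passed, against 0.158% of all probe sets, and limma gave 1 with an unadjusted p below 0.05. Single regions gave no call either, with 0 of 19 unadjusted in the organ of Corti (0% of all probe sets called), 1 of 19 unadjusted in modiolus (0.0792% called) and 0 of 19 unadjusted in stria vascularis (0.238% called). The smallest adjusted p of a family probe set was 0.60 for the mean and 0.50 in the modiolus. The hypoxia difference varied between regions for no family probe set and for 0 of all probe sets (limma F test, smallest adjusted p in the family 0.93). Of the within-gene pairs 0 of 24 differed in the hypoxia comparison, against 0.313% of all pairs.

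In the mean of the regions no Bax probe set differed between hypoxia and normoxia by more than its SE. U59184_at read 13924 and 11905 in hypoxic organ of Corti against 11555 and 11385 in normoxic organ of Corti, 19583 and 14108 in hypoxic modiolus against 17006 and 15618 in normoxic modiolus, and 12039 and 10970.4 in hypoxic stria vascularis against 13957 and 14454 in normoxic stria vascularis. The mean log2 difference was -0.04 ± 0.10 for U59184_at, 0.02 ± 0.11 for S76511_s_at and -0.02 ± 0.15 for U49729_at. Hrk E13573cds_s_at had the smallest p of the family. It read 685 and 1233 in hypoxic organ of Corti against 1074 and 1038 in normoxic organ of Corti, 779 and 609 in hypoxic modiolus against 1351 and 2117 in normoxic modiolus, and 1288 and 1356 in hypoxic stria vascularis against 1679 and 1851 in normoxic stria vascularis. The hypoxic arrays were below the normoxic ones without overlap in modiolus and stria vascularis but overlapped in the organ of Corti, and the difference did not pass (-0.63 ± 0.27, limma adjusted p = 0.60). Within scan period 2 the mean difference was -0.60 and within scan period 3 it was -0.66. The fitted differences of the other pro-death probe sets lay between -0.40 and 0.15, some of them with groups below background.

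Among the anti-death probe sets above background in every group the hypoxia differences in the mean of the regions lay between -0.03 for Bcl2l2 and 0.30 for Bcl2 L14680_g_at. L14680_at was above background in the organ of Corti only, where it read 579 and 765 in hypoxia against 221 and 472 in normoxia, without overlap as read (1.00 ± 1.07). Normoxic organ of Corti 1, at 221, was below its own limit of 772.18, which exceeds both hypoxic readings. The fitted mean of L14680_at over the regions, mostly of groups below background, was -0.06 within scan period 2 and 1.80 within scan period 3. Bcl2 L14680_g_at gave 0.30 ± 0.27 in the mean, with 0.53 within scan period 2 and 0.07 within scan period 3. In modiolus it read 1190.3 and 1697 in hypoxia against 466 and 1571 in normoxia, which overlap. Bcl2l1 U34963_s_at gave 0.02 ± 0.17, U72350_at 0.20 ± 0.18 and S78284_s_at 0.12 ± 0.19. Centring each array on its median moved the hypoxia differences in the modiolus by -0.26 as a whole, with no family call under it.

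Levels were also compared between regions, as the mean of the 3 conditions. Of the 19 probe sets 5 passed between organ of Corti and modiolus (23.9% of all probe sets), 2 between organ of Corti and stria vascularis (17.2%) and 4 between modiolus and stria vascularis (25.4%). The median of all probe sets was -0.20 for organ of Corti minus modiolus, 0.11 for organ of Corti minus stria vascularis and 0.34 for modiolus minus stria vascularis. Centring each array on its median moved the last of these by -0.40 and the one before it by -0.31, so that small differences against stria vascularis depend on the scaling. Bax U49729_at was lower in the organ of Corti than in the modiolus by 0.77 ± 0.16 (limma adjusted p = 0.0036), with a median signal of 1768 over 6 organ of Corti arrays against 3569.6 over 5 modiolus arrays. Bcl2l11 AF065433_at was higher in the modiolus than in the stria vascularis by 0.82 ± 0.17 (limma adjusted p = 0.0038), and by 0.42 with adjusted p = 0.17 after centring. Hrk rc_AA925846_s_at was lower in the modiolus than in the organ of Corti by at least 1.46-fold (limma adjusted p = 0.0073) and than in the stria vascularis by at least 1.95-fold (limma adjusted p = 0.0014), since hypoxic and normoxic modiolus were not above background. Neither of its calls was lost under any alternative run. With the repeat number as a replicate block, or the scan period as a term among cultures, 2 more calls were made. Bax U49729_at passed in modiolus minus stria vascularis (0.49, limma adjusted p = 0.033 and 0.020) and Bcl2l11 AF065433_at in organ of Corti minus stria vascularis (0.44, limma adjusted p = 0.039 and 0.036). After centring, Bax S76511_s_at was lower in modiolus than in stria vascularis (-0.65, limma adjusted p = 0.0013). In organ of Corti, Bax S76511_s_at (-0.59, 0.0019), Bax U49729_at (-0.59, 0.014), Bcl2l11 AF065432_s_at (-1.20, 0.035) and Bcl2l1 S78284_s_at (-0.70, 0.047) were then also lower than in stria vascularis.

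The remaining regional calls were less stable. Bcl2 L14680_at was higher in the organ of Corti than in the modiolus (limma adjusted p = 0.028) and the stria vascularis (limma adjusted p = 0.029). The modiolus and stria vascularis groups were all below background, as was native organ of Corti, so that no size is given. Each call was lost without any 1 of 5 arrays (adjusted p = 0.057 to 0.078 and 0.061 to 0.090), the second also with quantile normalization (0.062), after centring (0.063) and without the variance trend (0.055). Hrk D83697_at was lower in the organ of Corti than in the stria vascularis (limma adjusted p = 0.028), by 2.04-fold with native organ of Corti raised to the limit. Hypoxic and normoxic organ of Corti 1, at 270.6 and 440 against limits of 538.1 and 772.18, were kept as read. Its signal was also lower in the modiolus than in the stria vascularis, by at least 1.20-fold (limma adjusted p = 0.035). Each of these calls was also lost without any 1 of 5 arrays (adjusted p = 0.071 to 0.091 and 0.055 to 0.090). Bcl2l11 AF065431_s_at was lower in the organ of Corti than in the modiolus (limma adjusted p = 0.032), by 1.93-fold with normoxic organ of Corti raised to the limit. Hypoxic organ of Corti 1, at 102 against a limit of 538.1, and native organ of Corti 2, at 398.8 against 440.26, were kept as read. This call was lost without any 1 of 7 arrays (adjusted p = 0.051 to 0.071), with quantile normalization (0.057) and after centring (0.054). Bax U59184_at gave -0.41 ± 0.11 for organ of Corti minus modiolus (limma adjusted p = 0.020), lost without native organ of Corti 2 or hypoxic organ of Corti 2 (-0.37 for each, adjusted p = 0.065 and 0.056), after centring (0.052) and without the variance trend (0.086). It gave 0.40 ± 0.12 for modiolus minus stria vascularis (limma adjusted p = 0.031), which was lost without any 1 of 5 arrays (adjusted p = 0.056 to 0.065) or without the variance trend (0.107) and turned to -0.0028 once arrays were centred on their medians.

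The balance of the family was followed as the mean log2 signal of the pro-death genes Bax, Bcl2l11 and Hrk minus that of the anti-death genes Bcl2, Bcl2l1 and Bcl2l2. Since probe sets differ in brightness for reasons other than transcript number, only its change between conditions can be read, and no test is given for a score over chosen genes. With each gene taken by the probe set of highest mean log2 signal, the balance was 0.05 to 1.20 on normoxic arrays against 1.78 to 1.97 on native arrays, without overlap. The change was -1.01 in the mean of the regions, made up of -1.02 for organ of Corti, -1.23 for modiolus and -0.79 for stria vascularis. Normoxic modiolus was at 1.13 and 0.05, and its change was -0.69 without array 2 and -1.77 without array 1. The direction of the change in the mean of the regions followed from the choice of probe set. Taking the probe set of highest mean linear signal replaces 1 probe set, E13573cds_s_at for rc_AA925846_s_at in Hrk, and gave a change of 0.16. The mean over all probe sets of a gene gave 0.12, and that over probe sets above background in at least 1 group gave 0.19, both including groups below background. In the same order these other choices gave -0.27, -0.15 and -0.08 for organ of Corti, where the change was thus negative under each choice. They gave 0.38, 0.34 and 0.34 for modiolus and 0.37, 0.17 and 0.32 for stria vascularis. With Hrk groups below background raised to the limit, the change in the mean of the regions was -0.90 for the probe sets of highest mean log2 signal and -0.01 for those of highest mean linear signal.

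**Figure D4:**
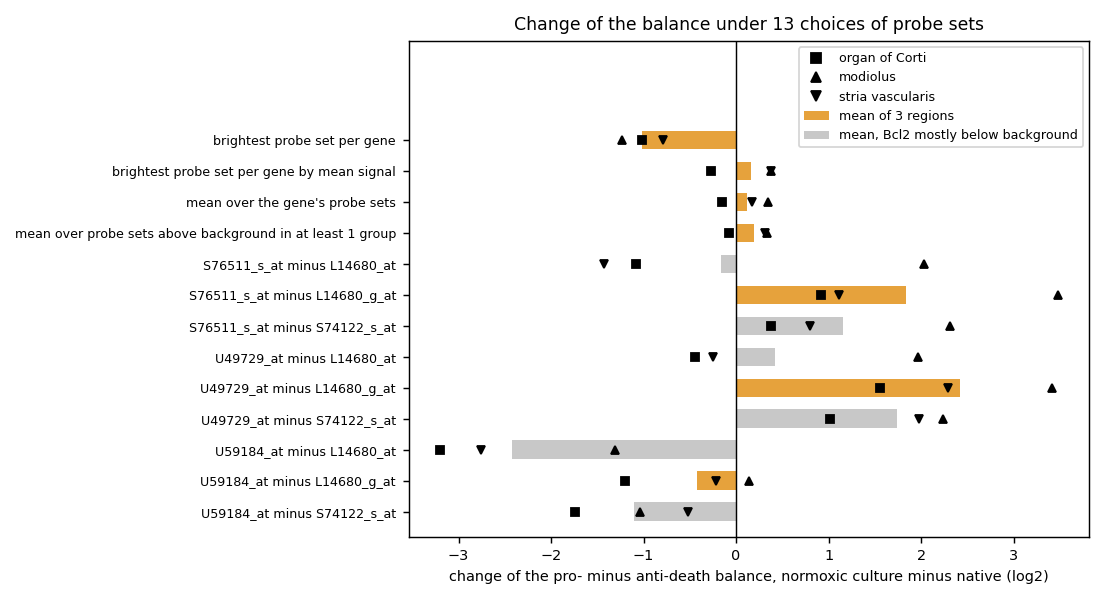
Change of the balance from 13 choices of probe sets, normoxic culture minus native tissue (log2), with bars for the mean of the 3 regions and symbols for single regions. The top 4 rows use all 6 genes and the other 9 rows set 1 Bax probe set against 1 Bcl2 probe set. Grey bars use Bcl2 probe sets that were below background in all native groups. Of the 3 combinations with L14680_g_at, 2 lie above 0 and the one with Bax U59184_at below it.

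Between Bax and Bcl2 alone, 6 of 9 combinations rest on L14680_at or S74122_s_at, which were below background in all native groups, and are not read. Of the 3 with L14680_g_at, the changes with culture were 1.84 for S76511_s_at, 2.42 for U49729_at and -0.42 for U59184_at. With the brightest probe set of each gene, U59184_at and L14680_g_at, this -0.42 was made up of -1.20 for organ of Corti, 0.14 for modiolus and -0.21 for stria vascularis. In modiolus 3 of 3 were positive, against 2 of 3 in the organ of Corti and 2 of 3 in the stria vascularis. For U59184_at in modiolus the normoxic arrays, at 5.14 and 3.30, lay on both sides of the single native array at 4.08, so that this sign is not settled. Normoxic modiolus 1, with the lowest L14680_g_at signal of all arrays (466), enters all 3 combinations. For hypoxia against normoxia the 3 combinations, which share the Bcl2 probe set, changed by -0.34 to -0.28 in the mean of the regions. By region, 3 of 3 were positive for organ of Corti, 0 of 3 for modiolus and 0 of 3 for stria vascularis. The balance over 6 genes changed with hypoxia by -0.13, -0.29, -0.30 and -0.25 under the 4 choices of probe sets. For the first of these choices arrays of 1 group differed with a pooled SD of 0.33, and without normoxic modiolus 1 its change was 0.05. No SD is given for the other choices.

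Other probe sets were ranked by the Pearson correlation of their log2 signal with the brightest probe set of each gene over the 16 arrays, as a description. For Bax U59184_at the closest were Stk10 (r = 0.961), Sod1 (0.938) and Apex1 (0.938). Bcl2l11 AF065433_at was closest to Dlg4 (0.887), Mag (0.880) and Ppp3ca (0.879), and Hrk rc_AA925846_s_at to Cpz (0.905), Mt3 (0.904) and Fgfr4 (0.896). The rising Hrk E13573cds_s_at was closest to C3 (0.912 and 0.901 for 2 probe sets) and Gsta1 (0.902). Among the anti-death genes Bcl2 L14680_g_at was closest to Cntn4 (0.837), Kcnj11 (0.744) and Gnas (0.733), Bcl2l1 U34963_s_at to Hsp90ab1 (0.874), Igfbp5 (0.851) and Eef2 (0.847), and Bcl2l2 AF096291_at to Egr1 (0.751 and 0.748 for 2 probe sets) and Igfbp5 (0.722). The arrays share regions, conditions and scan periods, which also move these values.

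Of a list of 51 further genes of the cell death pathway 14 were measured, each taken by its brightest probe set. In culture 2 of them were higher and 3 lower, with a median log2 difference of -0.16, near the 13.3% higher, 18.7% lower and median of -0.14 over all probe sets, and in the hypoxia comparison 0 of 14 passed (limma). These counts include Fas, Tnf and Tnfrsf1b, which were below background in every group. Birc2, among the higher genes, had a mean signal of 362 in normoxia and of 43.5 in native tissue, where it was below background. The smallest p values were those of Jun, Bad and Casp2. Jun, the transcription factor known to induce Hrk in neurons, had a mean signal of 6193 in normoxia against 912 in native tissue (2.59 ± 0.16, adjusted p = 7.8e-08). Bad, a BH3-only protein held inactive by phosphorylation, had 6955 in normoxia against 20869 in native tissue (-1.59 ± 0.13, adjusted p = 1.7e-06). Like the rest of this list, Bad is outside the 6 genes followed here and does not enter their counts or the balance. Casp2, an initiator caspase, had 2435 in normoxia against 10480.3 in native tissue (-2.21 ± 0.20, adjusted p = 4e-06). Casp2 was also among the genes with probe sets called both ways.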

How the data were processed

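The deposited table holds 1 intensity per probe set on a linear scale for 16 arrays of the chip type RN_U34. Per the values, the authors had scaled each array to the same 2% trimmed mean. The software of the summary is not given in the sources used here. Scan periods come from the deposited scanner records, which hold no expression values.

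Of 1322 probe sets, 59 controls were left out. Of the other 1263, the platform annotation gives 1 symbol to 1137, several to 8 and none here to 118. Values were used as log2(value + 16) without further normalization or filter. A linear model with 1 mean for each of the 9 groups was fitted under R 4.3.3 using limma 3.58.1 and statmod 1.5.0. It left 7 residual degrees of freedom and used a variance trend and Benjamini-Hochberg adjustment over the 1263 probe sets. Groups of 1 native array take their spread from the replicated groups. All tests were two-sided. Differences between probe sets of a gene were fitted without the trend over 638 within-gene pairs. At-least folds, and folds and gaps given at the limit, have groups not above background raised to the background limit, also between regions. Single arrays below the limit in a group with another array above it were kept as read. The p-values belong to the differences as fitted. The model was tested on simulated data.

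All 19 family probe sets are reported. Per gene, the 3 closest probe sets are named, and of the pathway list the 3 with the smallest p for culture. The members and lists were chosen with earlier results of these data known. The promoter motifs, the balance by mean signal and the leaving out of arrays from the balance were chosen after seeing the data. Arrays with the same repeat number had residual correlations of -0.01 to 0.28 over 15 pairs of groups, 10 of them and not all above 0.1. The labels tie the number to no shared litter or day, so that arrays were not treated as paired. The scan period, which differs between repeats 1 and 2 of the cultures, was tried as a term. Alternatives were other pseudocounts, normalizations, filters and error models, scan period or repeat number in the model, fewer arrays and other choices of probe sets. The number of arrays limits the precision.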

Additional observations from a re-analysis of the deposited data

Results flagged for a closer look

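Bax S76511_s_at was singled out because its culture difference varied between regions beyond the spread (limma F test, adjusted p = 0.016), a call that was lost without the variance trend. It was 2.17 ± 0.23 (log2, SE) in modiolus, 0.79 ± 0.19 in organ of Corti and 0.41 ± 0.23 in stria vascularis, and native modiolus and native stria vascularis rest on 1 array each.

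Other results were singled out because every tested array of 1 region moved up and every one of another region moved down. The size given is the gap between the 2 regions' log2 differences, and that gap was not tested on its own. For hypoxia minus normoxia it was 0.383 for Bax S76511_s_at (0.31 in organ of Corti and -0.07 in modiolus), 0.472 for Bax U59184_at (0.17 in organ of Corti and -0.31 in stria vascularis) and 0.604 for Bcl2l2 AF096291_at (0.28 in stria vascularis and -0.32 in modiolus). For normoxia minus native it was 1.88 for Bcl2l11 AF065431_s_at (0.42 in modiolus and -1.46 in organ of Corti, where normoxia was not above background and the difference was 0.05 with it raised to the limit). It was 0.807 for Bcl2 S74122_s_at (0.42 in organ of Corti and -0.39 in stria vascularis, where neither condition was above background). In organ of Corti native tissue was not above background for S74122_s_at, and the difference was -0.24 with it raised to the limit. None of these probe sets passed the F test over the 3 regions for that comparison. Such opposite patterns occurred in 13.5% of all probe sets for hypoxia and in 23% for culture.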

How the results depend on the processing

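For culture in the mean of the regions, the 19 probe sets gave 474 values under the alternatives, of which 4 lost and 21 gained a call and 0 turned a called direction. With the repeat number as a replicate block 9 probe sets were called in place of 7, and the block lost none of the calls there. It gave 3 calls for organ of Corti minus stria vascularis and 5 for modiolus minus stria vascularis. No family probe set was called for hypoxia under any alternative run. Centring arrays on their medians gave 3 calls in place of 5 for organ of Corti minus modiolus and 5 in place of 2 for organ of Corti minus stria vascularis, and turned Bax U59184_at in modiolus minus stria vascularis to -0.0028 from 0.40. Without the variance trend, organ of Corti minus stria vascularis gave 1 call and the F test of culture between regions 0 in place of 1. A model of only the arrays compared gave 1 call in place of 3 for culture in stria vascularis. In the mean of the regions the balance changed with culture by -1.01, and by 0.16 with the probe set of highest mean signal, 0.12 with the mean over probe sets and 0.19 with those above background. Leaving out 1 array at a time gave 6 to 9 calls for culture in the mean of the regions, 2 to 5 in organ of Corti, 5 to 6 in modiolus and 2 to 3 in stria vascularis. It gave 2 to 5 calls for organ of Corti minus modiolus, 0 to 3 for organ of Corti minus stria vascularis, 2 to 4 for modiolus minus stria vascularis and 7 to 11 differing pairs, and the balance changes ranged from -1.19 to -0.83 for culture and from -0.31 to 0.052 for hypoxia. The cause of these shifts was not tested. The single native arrays of modiolus and stria vascularis could not be left out, and differences at signals near the background limit are limited by it.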
